A study of Mus musculus with 2 samples.

Results

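Glycinergic inhibitory nuclei without marker peptides were selected from mouse spinal dorsal horn nuclei of the dynorphin (Pdyn) lineage, and 341 of 7610 nuclei met the rule. A nucleus was a member if it held at least 2 UMIs (unique molecular identifiers, each a captured RNA molecule) of Slc6a5, none of Slc17a6, Pdyn, Gal or Npy, at most 1 each of Pnoc, Penk, Tac2, Cartpt and Fam19a2, and at most 19 of Alk. The rule was read from the same counts that are described here, so the levels of these genes are descriptions and were not tested. The data were 2 single-nucleus RNA-seq libraries made with the 10x Genomics droplet method, each from 1 pool of 8 adult mice of either sex. All mice of both groups were heterozygous for Pdyn-IRES-Cre and for R26-LSL-Sun1.eGFP, which puts a green fluorescent protein on the nuclear envelope of any cell in which Cre has been active. The injured group had an incision of the left plantar hindpaw at postnatal day 3, and the naive group were littermates that received isoflurane at day 3. Nuclei of the lumbar L3-L5 dorsal cord were sorted on green fluorescence. The reporter records past as well as present activity of the Pdyn promoter, and every member held 0 Pdyn UMIs by the rule. A count of 0 in a nucleus does not show that the gene is off. Within the limits, many members still held UMIs of the limited genes. Pnoc was held by 22.7% of naive and 21.4% of injured members, Penk by 15.3% and 9.55%, and Fam19a2 by 10.4% and 7.87%. Alk was held by 31.9% and 44.4%, Cartpt by 5.52% and 5.06%, and Tac2 by 2.45% and 5.06%.

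Glycinergic neurons release glycine onto strychnine-sensitive chloride channels and, together with GABA-releasing neurons, restrain the flow of touch, itch and pain signals through the dorsal horn. Slc6a5 encodes the neuronal glycine transporter that refills the terminal, Slc32a1 the vesicular transporter shared by GABA and glycine, and Gad1 and Gad2 the enzymes that make GABA from glutamate. Many dorsal horn inhibitory neurons use both transmitters. Dynorphin, galanin, neuropeptide Y, nociceptin and enkephalin mark well-known inhibitory populations, and glycinergic neurons that lack these peptides have been placed mainly in the deeper dorsal horn, where parvalbumin marks a part of them.

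The naive library held 4063 nuclei with a median of 6955 UMIs and the injured library 3547 nuclei with a median of 8464, over 19575 genes. The libraries shared 3 barcodes. Because each group was 1 pooled library, no test of injured against naive was possible, and the intervals given for single libraries (95%, exact Poisson, binomial or Clopper-Pearson) cover counting error only. The 2 pools are also not separate animals, so p-values between classes of nuclei do not measure the spread between mice. The variance was estimated with information shared across genes, so a small p-value does not show that the 2 libraries agreed. Levels are CPM (counts per 1000000 UMIs) of the summed nuclei of a class in a library.

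In the naive library 1357 nuclei held a Slc6a5 UMI, 569 held at least 2, and 540 of these held no Slc17a6. The limit on galanin removed the largest number of these 540 (222 nuclei), followed by Pnoc (100), Fam19a2 (76), Pdyn (65), Penk (62), Npy (52), Cartpt (24), Tac2 (14) and Alk (10), and a nucleus could fail several. Members were 163 of 4063 naive nuclei, or 4.01% (3.43% to 4.66%), and 178 of 3547 injured nuclei, or 5.02% (4.32% to 5.79%). With every nucleus thinned to 3000 UMIs before the rule was applied, and 128 naive and 76 injured nuclei of lower depth left out, the share was 2.72% (2.23% to 3.28%) of naive and 2.22% (1.76% to 2.77%) of injured nuclei, so the order reversed and no difference in share was read. Just inside the rule, 81 naive and 84 injured members held exactly 2 Slc6a5 UMIs, and the highest count in a member was 13. Just outside it, 177 naive and 160 injured nuclei met all other limits with 1 Slc6a5 UMI, with a median of 6600 and 7820.5 UMIs, where members had 7339 and 9012.5. Doublets were not called, and 8 naive and 9 injured members held both Xist and Y-linked UMIs, which marks nuclei or free RNA from mice of both sexes in the pool.

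The markers of inhibitory neurons were checked first. Slc32a1, which was not used to choose members, was at 63.3 CPM (50.6 to 78.3) in naive and 58.1 CPM (47.5 to 70.4) in injured members, and a UMI of it was seen in 36.8% and 42.1% of them. Over Gad1, Gad2 and Slc32a1 together, 129 of 163 naive and 127 of 178 injured members held at least 2 UMIs, while 12 and 18 held none. Nuclei with oligodendrocyte markers and no inhibitory or excitatory transmitter UMI (89 naive and 96 injured, median depth 3369 and 3992 UMIs) were at 0 for these genes by definition and give no background for them. Among oligodendrocyte markers, 9 of 10 were seen in naive and 10 of 10 in injured members, with a summed level of 120 and 199 CPM against 5615 and 4450 CPM in the oligodendrocyte marker nuclei. Of the 518 UMIs of these markers in members, 308 lay in 8 nuclei (2 naive, 6 injured) that held at least 5 each, 6 of them in the subgroup called cluster 1 below, and 2 of the 8 held both Xist and Y-linked UMIs. Nuclei with at least 5 such UMIs also numbered 8 and 29 among the Slc6a5-free and 2 and 12 among the peptide-holding glycinergic nuclei described below. Astrocyte markers summed to 42.5 and 44.7 CPM, with Agt and Gjb6 at 0 in both libraries. Microglia markers summed to 59.6 CPM in naive and 65.3 CPM in injured members, against 59.8 and 114 CPM in the oligodendrocyte marker nuclei. Of the 9 markers 3 were seen in naive and 5 in injured members. The complement genes C1qa, C1qb and C1qc were at 0 in members of both libraries. P2ry12 was not, at 63.3 and 44.5 CPM in members outside the subgroup called cluster 0 below.

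Members were compared with inhibitory nuclei that held no Slc6a5 UMI (Gad1, Gad2 and Slc32a1 summing to at least 2, no Slc17a6), 972 naive and 800 injured, with a median of 6459 and 7560.5 UMIs. Counts were summed per class and library, and the 4 sums were tested with edgeR's quasi-likelihood test with a term for the library. Of 10975 genes outside the rule with at least 100 UMIs, 1079 (9.83%) were higher in members and 846 (7.71%) lower at a Benjamini-Hochberg adjusted p under 0.05. With a fold of at least 2 required as well, 430 (3.92%) were higher and 379 (3.45%) lower. Counts by gene list below use the adjusted p alone and stand against 9.83% higher and 7.71% lower among all genes tested. The reference nuclei were not limited on peptides. Without the nuclei of either class that held at least 5 oligodendrocyte marker UMIs, 1195 were higher and 946 lower. Against the 192 naive and 193 injured Slc6a5-free nuclei that passed the same peptide limits, 430 genes were higher and 346 lower at the same threshold.

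The genes of GABA handling did not move as a block. Gad1 was at 292 CPM (264 to 322) in naive members and 134 CPM (118 to 152) in injured members, against 163 and 149 CPM in the Slc6a5-free nuclei. The naive members stood above the Slc6a5-free nuclei (153 to 173 CPM) for Gad1. In the injured library the interval of Gad1 in Slc6a5-free nuclei (140 to 159 CPM) overlapped that of the members. Gad2 was at 150 (naive) and 129 CPM (injured) in members and at 228 and 231 CPM in Slc6a5-free nuclei, and Slc32a1 at 104 and 65.8 CPM in the latter. These 3 genes chose the Slc6a5-free nuclei and were not tested. Of 8 other tested genes of GABA and glycine synthesis, storage and uptake, 1 was higher and 1 lower. That is near the 9.83% and 7.71% of all genes tested. Abat, the enzyme that breaks down GABA, was at 289 and 231 CPM in members against 160 and 144 CPM (log2 fold change 0.78, SE 0.11, edgeR adjusted p = 0.00035). Slc6a11, a GABA transporter, was lower (23.8 and 16.2 against 37.5 and 38.6 CPM, log2 -0.95, edgeR adjusted p = 0.0081).

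Of the 6 tested genes of glycine receptors and gephyrin, only Glrb passed the threshold. This beta subunit, which anchors glycine receptors to the synapse, was at 159 and 179 CPM in members and 115 and 118 CPM in Slc6a5-free nuclei (log2 0.55, SE 0.11, edgeR adjusted p = 0.0036). Gphn, the scaffold itself, was at 754 and 832 CPM against 748 and 821 CPM. Among 12 tested transcription factors of the inhibitory dorsal horn, 2 were higher and 4 lower, against 9.83% and 7.71% of all genes tested. Pax2, which fixes the inhibitory fate in development, was higher (343 and 250 against 174 and 196 CPM, log2 0.68, edgeR adjusted p = 0.0065), and both member libraries lay above both Slc6a5-free libraries. Pax8 was lower (116 and 98.9 against 201 and 222 CPM, log2 -0.97, edgeR adjusted p = 0.00025). Rorb, an orphan nuclear receptor of inhibitory interneurons of the deep dorsal horn, was lower as well (247 and 179 against 644 and 785 CPM, log2 -1.74, edgeR adjusted p = 2.2e-05).

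**Figure D1:**
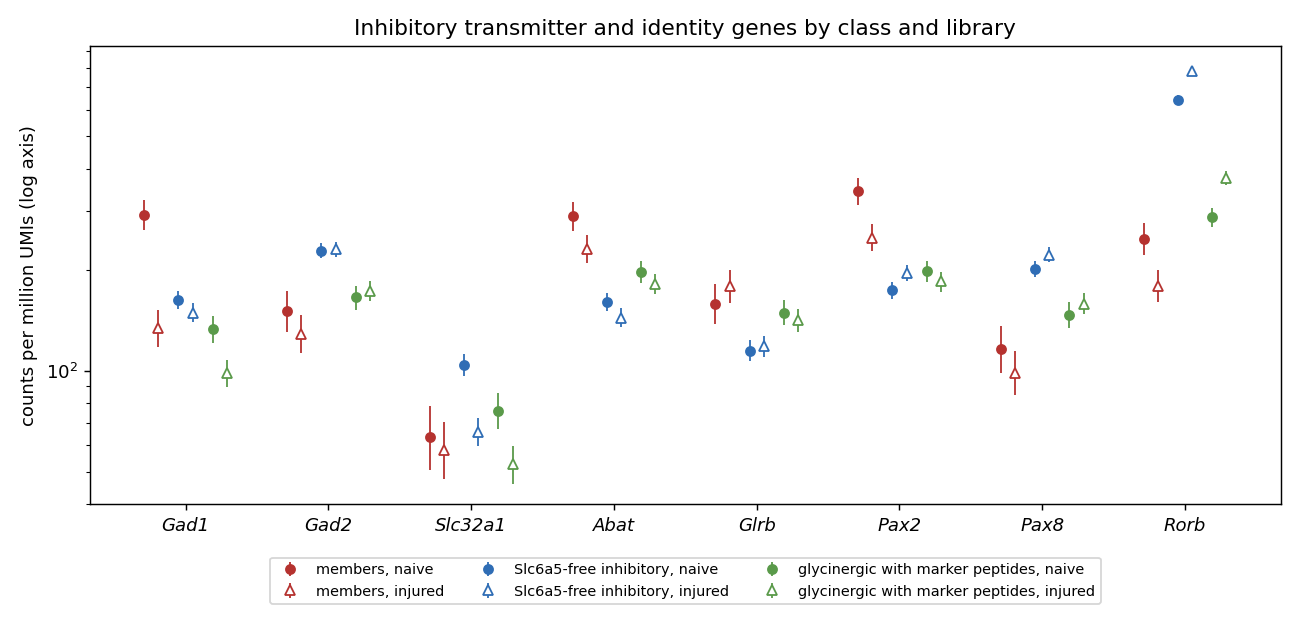
Levels of 8 transmitter and identity genes (CPM, log axis) in members, Slc6a5-free inhibitory nuclei and glycinergic nuclei with marker peptides, in the naive (filled circles) and injured (open triangles) library, with exact 95% Poisson intervals. Gad1 was lower in injured than in naive members and, by less, in glycinergic nuclei with marker peptides. For Gad1 the Slc6a5-free nuclei lay close together in both libraries. Rorb was lower in members than in either other class.

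The largest fold changes outside the rule were in a small set of membrane, enzyme and signalling genes. Atp10a, a phospholipid flippase (mm10 chromosome 7, 58656166 to 58829420), was at 150 CPM (130 to 172) in naive and 75.4 CPM (63.2 to 89.2) in injured members, against 4.86 and 3.43 CPM in Slc6a5-free nuclei. Its log2 fold change was 4.75 (SE 0.19, edgeR adjusted p = 1.5e-07), and 37.4% of naive and 21.9% of injured members held a UMI, against 2.57% and 2.0%. In the oligodendrocyte marker nuclei, at less than the members' depth, 1.12% and 4.17% held one. Slc9a3, a sodium-proton exchanger, was at 52.9 and 27.4 CPM against 1.82 and 1.25 CPM (log2 4.69). Fam20a, a pseudokinase of the secretory pathway, was at 103 and 59.8 CPM against 2.73 and 4.99 CPM (log2 4.37). Acss1, a mitochondrial acetyl-CoA synthetase, followed at log2 4.24, the Ras exchange factor Rasgrp4 at 3.93 and the alpha-kinase Alpk2 at 3.69. For these 6 genes the naive members stood above the injured members, and both stood above both Slc6a5-free libraries.

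The other genes of the 12 highest differed in part from that pattern. Foxp2, a forkhead transcription factor (mm10 chromosome 6, 14901349 to 15441977), was at 71.5 CPM (57.9 to 87.4) in naive and 133 CPM (117 to 151) in injured members against 10.2 and 11.1 CPM (log2 3.25, SE 0.18, edgeR adjusted p = 7.8e-07). Samd5 was at 17.1 and 57.0 CPM against 2.73 and 2.96 CPM (log2 3.65, and 2.68 without cluster 1). Both were higher in injured than in naive members. Stard5, a lipid-binding START-domain protein, was at 80.5 and 77.6 CPM against 8.96 and 8.88 CPM (log2 3.16), with nearly equal levels in both libraries. Bcan, which encodes the proteoglycan brevican, was at 38.0 and 44.1 CPM against 4.71 and 4.05 CPM (log2 3.24). The secreted protein gene Lgi2 (log2 3.45) and Strip2 (log2 3.12) completed the 12, with naive members above injured members in both.

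The lowest genes were led by transcripts that members hardly held. Pkd2l1, the channel of neurons that contact the cerebrospinal fluid (CSF), was at 5.96 and 9.49 CPM in members against 87.8 and 81.0 CPM in Slc6a5-free nuclei, and Pkd1l2 at 23.8 and 30.2 against 266 and 224 CPM. Of the 86 Pkd1l2 UMIs in members, 32 were naive, of which 29 came from 3 nuclei, and 54 injured, of which 53 came from 3 nuclei. Among the Slc6a5-free nuclei, 59 naive and 43 injured held a Pkd2l1 UMI or at least 2 Pkd1l2 UMIs, and among members 3 and 2. All 3 tested markers of CSF-contacting neurons were lower (median log2 -3.14). Without those nuclei in the reference, Pkd1l2 stood at log2 3.14 in the opposite direction, which the removal itself fixes. Gucy2d, a receptor guanylyl cyclase, was at 8.94 and 12.3 CPM in members against 118 and 129 CPM (log2 -3.51, SE 0.17, edgeR adjusted p = 4.5e-07). A Gucy2d UMI was held by 6.75% and 9.55% of members and by 43.2% and 48.0% of Slc6a5-free nuclei.

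Several of the lowest genes had 1 to 3 UMIs in all members, so the ratio is given with its counting interval over both libraries. Efhd1 (1 UMI) had a CPM 34.9 times higher in Slc6a5-free nuclei (6.17 to 1389), the ligand gene Wnt7a (1 UMI) 34.4 times (6.08 to 1370), Galnt3 (2 UMIs) 19.03 times (5.18 to 158) and the natriuretic peptide receptor Npr1 (2 UMIs) 14.7 times (3.98 to 123). Crip2 (2 UMIs) was 13.5 times (3.65 to 113) and D16Ertd472e (3 UMIs) 8.67 times higher (2.89 to 42.7), and DESeq2 did not call these last 2. Pkhd1l1 (log2 -3.91), the NMDA receptor subunit Grin2c (log2 -3.29) and the RNA-binding protein gene Igf2bp2 (log2 -3.28) made up the rest of the 12.

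**Figure D2:**
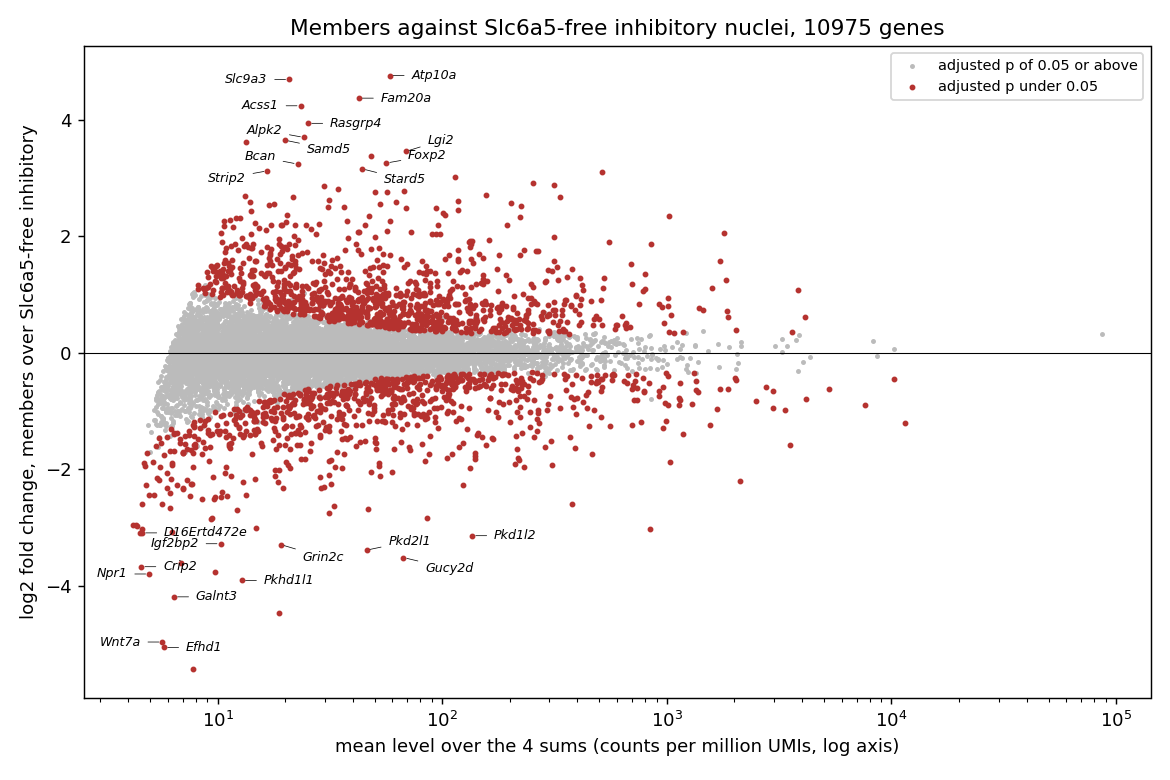
Log2 fold change of members over Slc6a5-free inhibitory nuclei against the mean level over the 4 sums (CPM, log axis), 1 point per gene over 10975 genes, with those at an edgeR Benjamini-Hochberg adjusted p under 0.05 in red and the 12 highest and 12 lowest named genes labelled. Atp10a (4.75), Slc9a3 (4.69) and Fam20a (4.37) lie at the top, and Efhd1 (-5.06) and Wnt7a (-4.96) near the bottom at low levels.

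Receptors and channels differed in both directions within most families. The counts by family stand against 9.83% higher and 7.71% lower among all genes tested. Gabra5, the GABA-A subunit of tonic, extrasynaptic inhibition, was at 122 and 77.1 CPM in members against 11.4 and 17.8 CPM (log2 2.75, SE 0.25, edgeR adjusted p = 1.7e-05), and Gabrb2 was higher too (log2 0.74). Gabra2 (145 and 152 against 382 and 378 CPM, log2 -1.34) and Gabrg1 (29.8 and 39.1 against 110 and 106 CPM, log2 -1.62) were lower, and 7 of the 11 tested subunits did not pass. Among metabotropic glutamate receptors, Grm3 and Grm8 (log2 0.95) were higher and Grm5 and Grm7 (log2 -0.66) lower. Grm3, which couples to inhibitory G proteins, stood at 443 and 297 CPM against 63.8 and 82.0 CPM (log2 2.34), and Grm5, which couples to calcium release, at 2349 and 2178 against 4338 and 4627 CPM (log2 -0.97). Of 17 ionotropic glutamate receptor genes, 4 were higher, among them Grin2a (log2 1.74) and Grid1 (log2 1.68), and 6 lower, among them Grik1 (log2 -1.05) and Grin2d (log2 -0.96).

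Sodium channel genes differed in both directions. Scn1a, a sodium channel known for sustaining fast firing in inhibitory interneurons, was at 351 and 452 CPM against 181 and 166 CPM (log2 1.22, SE 0.12, edgeR adjusted p = 4e-05). Scn9a was higher too (log2 1.01), and Scn3a (log2 -0.74) and Scn3b (log2 -0.81) lower. Of 15 potassium channel genes of fast and low-threshold currents, 4 were higher and 4 lower. Kcna1, a low-threshold axonal channel, was at 60.4 and 72.0 against 17.5 and 23.8 CPM (log2 1.69), while Kcnd3, an A-type channel, was at 200 and 197 against 551 and 534 CPM (log2 -1.44), and its auxiliary subunit Kcnip4 was lower (log2 -1.21). Among other potassium channel genes, Kcnh8 was higher (log2 2.04) and Kcnt2, a sodium-activated potassium channel, lower (411 and 470 against 1539 and 1707 CPM, log2 -1.87).

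The perineuronal net is a proteoglycan mesh around fast-firing neurons. Of 6 tested genes of this list, Bcan and Tnr were higher and Ptprz1 lower. Tnr, the cross-linker tenascin-R, was at 286 and 255 CPM in members against 35.2 and 48.8 CPM in Slc6a5-free nuclei (log2 2.70, SE 0.15, edgeR adjusted p = 6.9e-07), and Ptprz1, a receptor phosphatase that binds it, at 90.9 and 97.2 against 331 and 408 CPM (log2 -1.96). Bcan and Tnr are also made by glia of the oligodendrocyte lineage. The 5 markers of oligodendrocyte precursors summed to 831 and 874 CPM in members against 296 and 356 CPM, almost all of it Tnr and Lhfpl3, while the defining marker Pdgfra had 1 UMI in members of each library, and Cspg4 was at 0 in injured members. Among presynaptic release genes (26 tested, 7 higher, 6 lower), Syt2, the fast calcium sensor, was at 154 and 148 against 33.6 and 40.7 CPM (log2 2.03) and Cplx1 was higher (log2 1.38), while Syt10 (log2 -1.67) and Stx1a (log2 -1.33) were lower.

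Receptors for monoamines and peptides differed in both directions. Drd2, an inhibitory dopamine receptor, was at 66.3 and 38.5 CPM in members against 6.38 and 7.79 CPM (log2 2.86, SE 0.26, edgeR adjusted p = 1.9e-05), and the serotonin receptor Htr1f at 128 and 86.0 against 14.0 and 21.5 CPM (log2 2.58). Adra1a, an excitatory noradrenaline receptor, was lower (29.1 and 50.3 against 130 and 139 CPM, log2 -1.73). Of 17 tested neuropeptide receptors 7 were lower, among them Npy1r (log2 -2.25) and Sstr2 (log2 -2.10), and 3 higher, among them the opioid receptors Oprm1 (174 and 164 against 113 and 115 CPM, log2 0.58) and Oprd1 (log2 0.99). Scg2 and Chgb, granins of dense-core vesicles, were lower (log2 -1.64 and -0.74) and Vgf, another granin-like precursor, higher (log2 1.0).

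Cadherins and protocadherins, which sort neurons and synapses by adhesion, were higher in 12 and lower in 5 of 21 tested. Their median log2 was 0.77 against 0.00 over all genes tested. The 5th to 95th percentile of log2 was -1.10 to 1.39 in the longest of 4 groups by gene length. In the shortest it was -0.94 to 0.67, and the part of gene length was not tested. Pcdh15 was at 1893 and 1518 against 311 and 360 CPM (log2 2.35), and Cdh12 at 142 and 255 against 31.4 and 40.7 CPM (log2 2.45). Nuclear-encoded genes of oxidative phosphorylation were higher in 17 and lower in 0 of 35 tested (median log2 0.43), against 9.83% and 7.71% of all genes tested, with Cycs at log2 1.04 and Atp5g1 at 0.95. Cytosolic ribosomal protein genes were higher in 0 and lower in 4 of 71 (median log2 -0.22), a lower count that does not exceed the 7.71% of all genes. Of 18 transcription factors of birth order and depth, 7 were higher and 7 lower. The zinc-finger gene Zfhx3 was at 87.9 and 147 against 18.98 and 22.9 CPM (log2 2.48) and the nuclear receptor gene Esrrg at 283 and 356 against 67.6 and 73.5 CPM (log2 2.19), while Ebf1 was at 728 and 777 against 3441 and 3494 CPM (log2 -2.19).

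**Figure D3:**
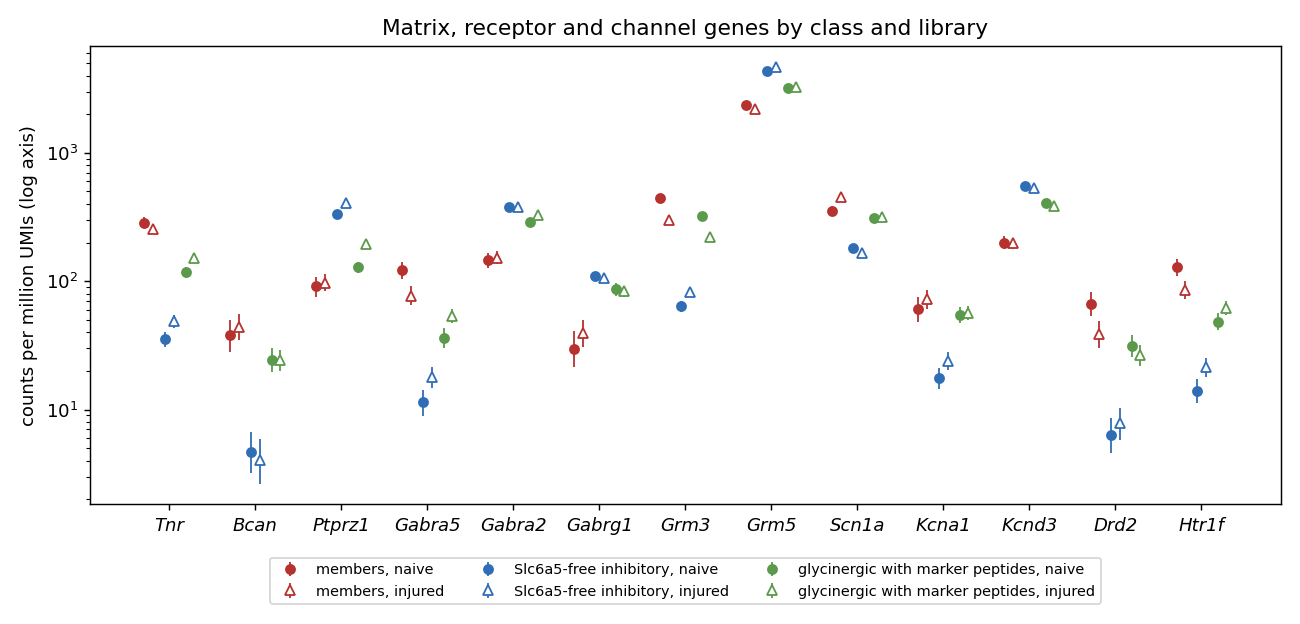
Levels of 13 matrix, receptor and channel genes (CPM, log axis) in members, Slc6a5-free inhibitory nuclei and glycinergic nuclei with marker peptides, in the naive (filled circles) and injured (open triangles) library, with exact 95% Poisson intervals. Tnr, Bcan, Gabra5, Grm3, Drd2 and Htr1f were highest in members and lowest in Slc6a5-free nuclei in both libraries, with the glycinergic nuclei that hold marker peptides in between, and Gabra2, Gabrg1, Grm5 and Kcnd3 ran in the reverse order.

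Pvalb, the marker of a deep dorsal horn inhibitory population, was sparse, with 40 UMIs in all members, and was not tested. It was chosen for mention after its values were seen. A UMI was held by 10.4% (6.19% to 16.2%) of naive and 8.99% (5.22% to 14.2%) of injured members, by 0.823% and 1.0% of Slc6a5-free nuclei, and by 5.30% and 6.20% of glycinergic nuclei with marker peptides. In the oligodendrocyte marker nuclei the share was 0 of 89 and 2.08%. At 3000 UMIs per nucleus it was 3.07% and 2.25% in members and 0.207% and 0.377% in Slc6a5-free nuclei.

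The nearest other nuclei by transmitter were the 377 naive and 387 injured glycinergic nuclei (at least 2 Slc6a5 UMIs, no Slc17a6) that failed a limit on a marker peptide, Alk or Fam19a2, at median depths of 8156 and 10483 UMIs. They are called peptide-holding for short. Of them 76 naive and 106 injured nuclei failed the limit on Fam19a2, and 10 and 35 that on Alk. How many failed on these genes alone was not counted. Slc6a5 was at 373 CPM in naive and 321 CPM in injured members against 309 and 314 CPM in this class. In the same edgeR test over 9859 genes, 380 (3.85%) were higher in members and 373 (3.78%) lower, and with at least a 2-fold change 80 (0.811%) and 67 (0.68%). DESeq2 called 66 higher and 54 lower, so the counts depend strongly on the tool. Of the 24 genes named from this comparison, 10 gave the same result with DESeq2. With nuclei thinned to 3000 UMIs 7 did, and with at least 3 Slc6a5 UMIs 12 did and 2 were not called. The rest had no recorded result in these settings, in either direction. The 4 sums share their 2 libraries and leave 1 residual degree of freedom.

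Crabp1, which binds retinoic acid in the cytosol, had the highest fold change (38.8 and 14.0 against 4.005 and 2.46 CPM, log2 2.95, SE 0.33, edgeR adjusted p = 3.2e-16). It was followed by Alpk2 (log2 2.73), Rasgrp4 (2.68), the heparan sulfate endosulfatase Sulf1 (2.40), the zinc-finger gene Ikzf3 (2.33), Slc9a3 (2.29), Atp10a (2.19), the secreted phosphoprotein gene Spp1 (2.07), Acss1 (1.92), the integrin Itga8 (1.90), Fam20a (1.88) and Crispld1 (1.82). Of these 12 genes, Alpk2, Rasgrp4, Slc9a3, Atp10a, Acss1 and Fam20a were also among the 12 highest over Slc6a5-free nuclei. Gad1 stood at log2 0.80, since the peptide-holding nuclei were at 133 and 98.3 CPM, and it is given as a description. Among the lowest, Ankfn1 was at 207 and 159 CPM in members against 503 and 532 CPM (log2 -1.53, SE 0.11, edgeR adjusted p = 5e-39) and at 1355 and 1630 CPM in Slc6a5-free nuclei. The ryanodine receptor gene Ryr1 (log2 -1.96), the protocadherin gene Pcdh8 (-1.88), Gucy2d (-1.70), Chst8 (-1.67), the matrix gene Abi3bp (-1.53), Gzmk (-1.53), the lipid phosphatase gene Plpp3 (-1.52), Tmem114 (-1.51), Tesc (-1.45) and Eva1c (-1.43) were lower as well. Prox1os (-1.69) is antisense to Prox1, and since strand use in counting is not given in the sources used here, reads of the pair may not be told apart.

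The families told the same order in part. Gabra5 (log2 1.08), Gabra2 (-1.07) and Gabrg1 (-1.29) passed against the peptide-holding nuclei with the signs seen against Slc6a5-free nuclei, as did Tnr (0.99), Ptprz1 (-0.79), Kcnd3 (-1.0), Ebf1 (-1.32) and Drd2 (0.81). Kcna1 was not called (60.4 and 72.0 against 54.6 and 56.7 CPM, edgeR adjusted p = 0.47), nor were Sv2b (adjusted p = 0.88 by edgeR) or Pcdh11x (0.87). Without cluster 0, a subgroup of members described below, these values were -0.67 for Gabra5, -0.63 for Gabra2, -0.86 for Gabrg1, 0.29 for Tnr, -0.32 for Ptprz1, -0.62 for Kcnd3, -0.87 for Ebf1 and -1.60 for Drd2, with no test. Gabra5 and Drd2 thus lay in the other direction without it. Cluster 0 was drawn from these same counts and left out of the members only. Falls in genes that are high in it therefore follow in part from the removal. Of 35 oxidative phosphorylation genes 2 were higher and 0 lower here, close to the 3.85% of all genes that were higher. The 2 comparisons share the members, so these values stand side by side and are not independent.

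The members were not uniform. Clustering of the 341 nuclei on variable genes outside the rule gave 8 clusters, which are numbered and unnamed, and their genes describe the clustering and were not tested. Cluster 0 held 96 nuclei (62 naive, 34 injured) and was led by Atp10a, Ebf2, Rasgrp4, Acss1 and Fam20a. Cluster 1 held 69 nuclei (19 and 50) and was led by Meis2, Il1rapl2, Ugt8a and Clstn2. Cluster 2 (17 and 13 nuclei) was led by Ankfn1 and Pde11a, cluster 3 (8 and 15) by Bmpr1b and Foxp2, and cluster 4 (11 and 14) by Ntn1, Rxfp2 and Col25a1. Clusters 5 (22 and 12), 6 (12 and 16) and 7 (12 and 24) were led by Mgmt and Cdh3, by Fbxl7 and Nxph2, and by Nos1 and Robo3. Cluster 1 also held most of the oligodendrocyte marker UMIs, at 420 CPM over the 10 markers against at most 134 CPM in any other cluster. Mog had 35 UMIs there and at most 4 in another cluster, Aspa 37 and at most 2, Mobp 27 and at most 2 and Cldn11 14 and at most 1. Not all of the 10 were highest there. Ermn was at 14.3 CPM in cluster 1 and 38.8 CPM in cluster 7, and Cnp at 23.4 CPM in cluster 1 and 26.8 CPM in cluster 6. Of the 323 UMIs of the 10 markers in cluster 1, 279 were in 6 of its 69 nuclei. Ugt8a, which leads cluster 1, is itself a gene of myelin lipid synthesis. Cluster 0 was the most numerous among naive and cluster 1 among injured members. Each cluster drew nuclei from both libraries. Cluster 3 was the deepest, with a median of 14684 UMIs, against 6728.5 in cluster 2.

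Gad1 levels spread widely over the clusters. Gad1 stood at 555 CPM in cluster 0, 167 and 170 CPM in clusters 5 and 6, 115 CPM in cluster 2, between 59.8 and 77.5 CPM in clusters 1, 4 and 7, and at 5.56 CPM in cluster 3. A Gad1 UMI was held by 96.9% of cluster 0 and by 8.70% of cluster 3, whose nuclei were the deepest. Slc32a1 lay between 50.6 and 73.4 CPM in all 8 clusters, on 12 to 49 UMIs in each, so smaller differences were not detectable at this depth. Nos1, which makes nitric oxide, had 299 CPM in cluster 7 and at most 53.5 CPM in the others. Pvalb UMIs were held by 27.1% of cluster 0 and 10.1% of cluster 1 and by no nucleus of the other 6.

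**Figure D4:**
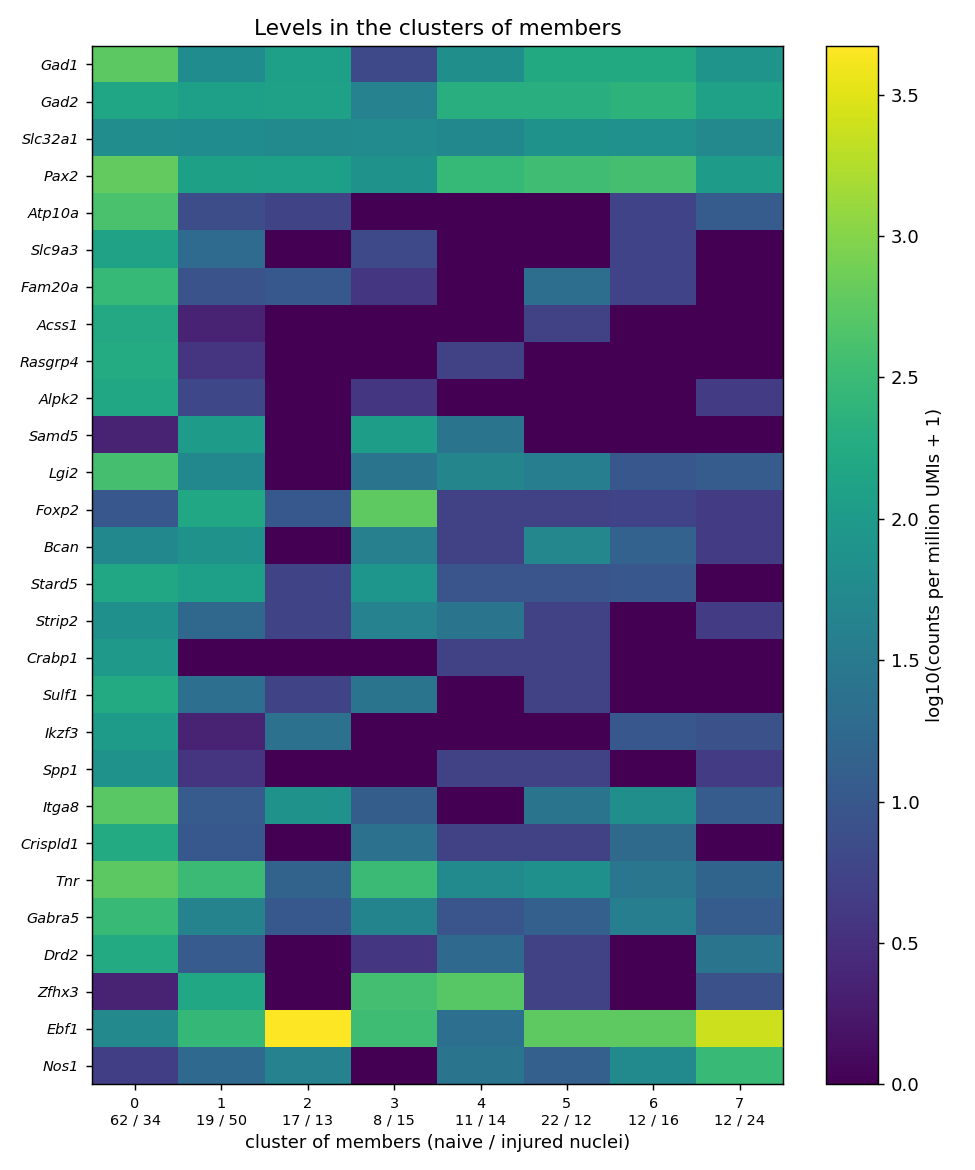
Levels of 28 genes (log10 of CPM plus 1, colour) in the 8 clusters of members, with the number of naive and injured nuclei under each. Atp10a, Acss1, Rasgrp4 and Crabp1 are bright in cluster 0 and near 0 elsewhere, Foxp2 in clusters 1 and 3, Zfhx3 in clusters 1, 3 and 4, and Slc32a1 is nearly even across all 8.

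Cluster 0 carried much of the fold change described above. Within it Atp10a was at 405 and 417 CPM in the naive and injured library, and in the other members at 3.52 and 4.72 CPM, close to the Slc6a5-free nuclei. Of the 12 highest genes over Slc6a5-free nuclei 9 had their highest level in cluster 0, and of the 12 highest over peptide-holding nuclei all 12 did. Without cluster 0, 276 of the 430 genes at least 2-fold higher than in Slc6a5-free nuclei remained at least 2-fold higher, 127 were under 2-fold and 27 lay in the other direction. Of the 80 genes at least 2-fold higher than in peptide-holding nuclei, 10 remained, 28 were under 2-fold and 42 lay in the other direction. All 12 that were named were among these 42. Cluster 0 was left out of the members only, so the fall of genes high in it was in part fixed by the removal. Of the lower genes, 251 of 379 and 18 of 67 remained at least 2-fold lower and 0 lay in the other direction. Without cluster 1 instead, 336 of the 430 and 74 of the 80 higher genes, and 310 of the 379 and 38 of the 67 lower genes, remained at least 2-fold, with 1 gene in all in the other direction.

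Single genes fell on either side of this split. The log2 fold change over Slc6a5-free nuclei without cluster 0 was 3.62 for Foxp2, 3.87 for Samd5, 3.01 for Bcan, 1.97 for Tnr, 2.90 for Zfhx3, 1.17 for Scn1a, 1.85 for Kcna1 and 1.96 for Syt2. It was 0.13 for Atp10a, 0.42 for Drd2, -0.04 for Pax2, -0.88 for Gad1, -1.04 for Ebf2, -0.11 for Sema3e, -0.29 for Alpk2, -0.64 for Acss1 and -1.42 for Rasgrp4. Gabra5 and Grm3 stood in between at 0.96 and 0.89. Members outside cluster 0 were thus at least 2-fold above Slc6a5-free nuclei for Foxp2, Zfhx3, Scn1a, Kcna1 and Syt2. They were not for Atp10a, Ebf2, Drd2 and Pax2. Atp10a and Ebf2 lead cluster 0 in the same counts, so their fall was fixed by leaving it out. Tnr was at 542 and 573 CPM in cluster 0 and at 140 and 189 CPM in the other members, so it was carried in part. Outside the members Atp10a was at 7.25 CPM in naive and 9.73 CPM in injured nuclei of the whole series. Other genes that lead cluster 0 were common there. Ebf2 was at 68.4 and 70.6 CPM, with a UMI in 22.2% and 23.9% of these nuclei, and Itga8 was held by 20.3% and 24.2%.

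The last comparison set the injured against the naive members, which bears on what a neonatal paw incision leaves behind in these neurons in the adult. With 1 pooled library per group it has no replicate check. Of 5246 genes with at least 100 UMIs in members, 146 (2.78%) were at least 1.5 times higher in injured members and 194 (3.7%) at least 1.5 times lower. The median log2 ratio was -0.02, with a 5th percentile of -0.53 and a 95th of 0.45. In the far more numerous Slc6a5-free nuclei the same percentiles of the same genes were -0.35 and 0.22. Ratios ran with gene length in both classes, from a median of -0.11 in the shortest of 4 equal groups of genes to 0.09 in the longest among members and from -0.15 to 0.06 among Slc6a5-free nuclei. The part of gene length in the ratios was not tested.

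Among the transmitter genes, Gad1 was at 0.459 times the naive level (0.389 to 0.540), while in Slc6a5-free nuclei the ratio was 0.918. In peptide-holding glycinergic nuclei Gad1 was also lower, at 0.739 (0.647 to 0.844). A Gad1 UMI was held by 69.3% of naive and 51.7% of injured members, and by 48.5% and 27.5% at 3000 UMIs per nucleus. Without cluster 0, which held the highest Gad1 level and more naive than injured nuclei, the ratio in members was 0.613. Within cluster 0 it was 0.753 (0.613 to 0.923). Gad2 was at 0.857 (0.707 to 1.04), Slc32a1 at 0.917 (0.682 to 1.24) and Slc6a5 at 0.859 (0.760 to 0.970). The intervals of Gad2 and Slc32a1 held 1. Slc6a5 chose the members by a fixed count of at least 2 UMIs, and injured members were deeper (median 9012.5 against 7339 UMIs). Its ratio thus depends on the rule and on depth, and no difference was read from it. Glycine receptor genes passed in 0 of 6.

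The lowest ratios by the naming rule were in 10 genes. Hpse2, a non-catalytic relative of heparanase, stood at 68.6 CPM (55.3 to 84.1) in naive and 20.7 CPM (14.6 to 28.5) in injured members, a ratio of 0.301 (0.200 to 0.446), and was at 1.33 times in Slc6a5-free nuclei. Of its 92 naive UMIs 41 came from 3 nuclei. The calmodulin gene Calm3 was at 69.3 and 25.1 CPM (0.363, 0.248 to 0.523), Shisa8, an auxiliary subunit gene of AMPA receptors, at 121 and 48.0 CPM (0.398, 0.303 to 0.520), and Rspo3, a secreted Wnt enhancer, at 90.9 and 36.9 CPM (0.406, 0.296 to 0.552). Acss1 (0.392) and Alpk2 (0.410) belonged to cluster 0, and within it their ratios were 0.824 and 0.786. Itm2c (0.411), the mitochondrial lyase gene Clybl (0.439), the adaptor gene Skap1 (0.452) and the sodium channel subunit gene Scn3b (0.472) followed. The ratio without cluster 0 was 0.284 for Hpse2, 0.440 for Calm3, 0.426 for Shisa8, 0.336 for Rspo3, 0.509 for Itm2c, 0.447 for Clybl, 0.463 for Skap1 and 0.435 for Scn3b, so all 8 stayed past the 1.5-fold limit. Calm3, Shisa8 and Itm2c were also lower in the injured library in the other classes, at 0.788, 0.730 and 0.687 in Slc6a5-free nuclei and 0.627, 0.624 and 0.603 in peptide-holding nuclei, with intervals below 1. Rspo3 was at 326 CPM in cluster 5, which held 22 naive and 12 injured nuclei, and at 214 CPM in cluster 6.

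The highest ratios were in genes with few UMIs in naive members. Col25a1, a membrane collagen, went from 6 UMIs in 6 naive nuclei (4.47 CPM, 1.64 to 9.73) to 155 UMIs in 27 injured nuclei (86.6 CPM, 73.5 to 101), a ratio of 19.4 (8.70 to 53.6). Of those 155 UMIs 85 were in 3 nuclei, and the ratio was 1.82 in Slc6a5-free and 1.39 in peptide-holding nuclei. Samd5 (17.1 to 57.0 CPM, 3.32 times, 2.10 to 5.48), the cadherin gene Cdh23 (3.20), the homeobox gene Meis2 (23.8 to 71.5 CPM, 3.00), L3mbtl4 (2.86), the zinc-finger gene St18 (2.73), the axon repellent gene Sema3a (17.9 to 46.4 CPM, 2.59, 1.63 to 4.27), the inositol transporter gene Slc2a13 (2.50), Col19a1 (2.42) and Nell1 (73.0 to 175 CPM, 2.39, 1.90 to 3.04) followed. Sema3a and Nell1 stood at 0.728 and 0.835 in Slc6a5-free nuclei. In peptide-holding nuclei Nell1 was at 2.01, L3mbtl4 at 2.02 and Slc2a13 at 1.54, with intervals above 1. St18 was at 896 and 1140 CPM in the oligodendrocyte marker nuclei, and the summed oligodendrocyte markers went from 120 to 199 CPM in members and from 117 to 242 CPM in Slc6a5-free nuclei. The 8 members with at least 5 oligodendrocyte marker UMIs held 8 naive and 57 injured St18 UMIs, and without them its ratio was 1.75 (1.01 to 3.13). Meis2 leads cluster 1, which held 19 naive and 50 injured nuclei. Without cluster 1 its ratio was 0.215 (0.0226 to 1.04) on few UMIs, Slc2a13 was at 1.38 (0.904 to 2.12), L3mbtl4 at 1.74 (0.893 to 3.52) and Nell1 at 1.67 (1.18 to 2.37). By count, 143 genes were then at least 1.5 times higher and 254 lower, and without the 8 nuclei 140 and 194. Given the same weight for each cluster in both libraries, 56 genes rather than 146 were at least 1.5 times higher, and 11 of the 20 named ratios moved outside their counting interval. The part of the mix of clusters in these ratios cannot be told apart from other differences between the 2 pools.

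**Figure D5:**
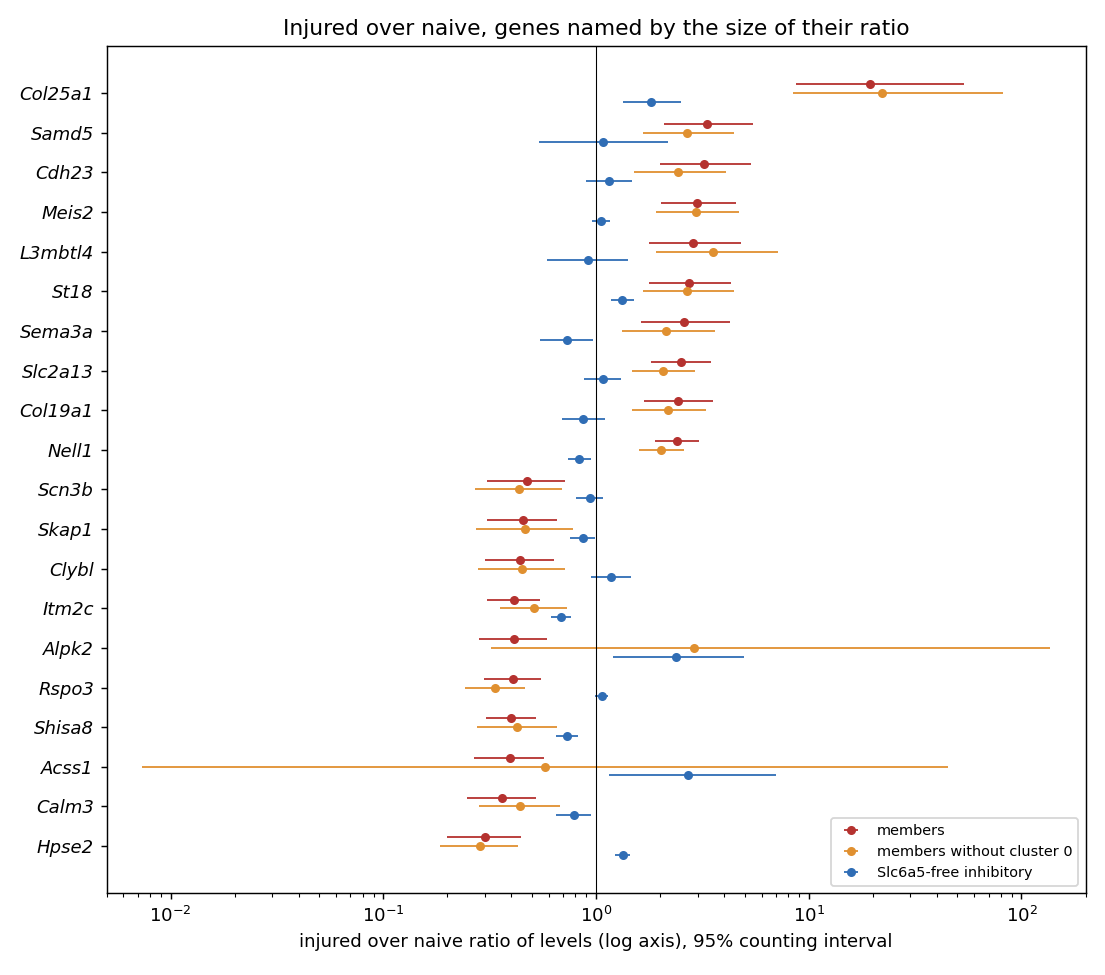
Injured over naive ratio of levels (log axis) for the 10 highest and 10 lowest named genes in members, in members without cluster 0 and in Slc6a5-free inhibitory nuclei, with 95% intervals from counting error alone. In members the 10 upper genes lie between 2.39 and 19.4 and the 10 lower between 0.301 and 0.472, while in Slc6a5-free nuclei most lie near 1, with Acss1 at 2.69 and Alpk2 at 2.37.

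By list, all 3 acetylcholine receptor genes with enough UMIs passed 1.5-fold upward, namely the muscarinic receptors Chrm2 (159 to 254 CPM, ratio 1.60, 1.36 to 1.89) and Chrm3 (135 to 226 CPM, 1.68, 1.40 to 2.01) and the nicotinic subunit Chrna7 (23.8 to 40.2 CPM, 1.69, 1.10 to 2.64). In Slc6a5-free nuclei they stood at 0.818, 1.26 and 0.940. In peptide-holding nuclei all 3 were higher as well, at 1.28 (1.14 to 1.44), 1.30 (1.19 to 1.42) and 1.295 (1.01 to 1.67). Without the nuclei that held at least 5 oligodendrocyte marker UMIs, Chrm2 was at 1.54 and Chrm3 at 1.595 in members. Without cluster 0 Chrm2 and Chrm3 were under the 1.5-fold limit (1.45 and 1.41) and Chrna7 at 1.83, and within cluster 0 Chrm2 and Chrm3 were each at 1.01. Without cluster 1 Chrm2 was at 1.41 and Chrm3 at 1.95. Among cadherins and protocadherins 5 of 21 were higher and 0 lower, with Cdh12 at 1.79 (1.51 to 2.13), at 1.39 without cluster 0 and at 1.498 without cluster 1. Among axon guidance genes 6 of 27 were higher and 1 lower. These shares stand against 2.78% of all genes higher and 3.7% lower. In the longest of 4 equal groups by gene length, the 95th percentile of the log2 ratio was 0.69, against 0.45 over all genes. The part of gene length in these shares was not tested. Of 9 GABA-A subunits Gabrb2 was higher (30.5 to 67.6 CPM, 2.21, 1.54 to 3.23) and Gabra5 lower (0.635, 0.502 to 0.801), the latter at 1.35 without cluster 0. Ribosomal protein genes were lower in 4 of 14, as was their median (log2 -0.38, against -0.46 for the same genes in Slc6a5-free nuclei). Endothelial markers summed to 10.4 CPM in naive and 44.1 CPM in injured members mostly through Mecom, named after its values were seen, which went from 1 to 68 UMIs with 67 of the 68 in 3 nuclei, while Flt1 was at 0 in both.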

How the data were processed

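Per the submitters' processing notes, the authors used Cell Ranger 3.0.2 and Seurat with the mm10 genome, and deposited raw UMI counts per gene and nucleus (19575 genes, 7610 nuclei, none with under 514 genes). The authors' deposited natural log values were recomputed from these counts and differed by at most 6e-15, so only counts were analysed. The members, gene lists and comparisons were chosen with earlier results of these data known.

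Counts were summed per class and library with Python 3.11.15 and tested in R 4.3.3 with edgeR 4.0.16 (quasi-likelihood, TMM scaling, library term, genes with at least 100 UMIs, Benjamini-Hochberg adjustment over all genes tested), with DESeq2 1.42.0 as alternative, after a check on simulated data. Clusters used scanpy 1.11.5 (2000 variable genes, 20 components, 15 neighbours, Leiden resolution 0.5). Named genes were the 12 highest and 12 lowest called log2 fold changes, or 10 and 10 ratios, with the same direction in Xist-only and Y-only nuclei and, for the tests, in each library, and with the gene detected in 5% or more of the higher class. From each list up to 3 genes per direction were named. Gene positions are from GENCODE on mm10. Some genes are not reported here.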

Additional observations from a re-analysis of the deposited data

Results flagged for a closer look

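For 5 genes the injured over naive ratio in members ran one way and in Slc6a5-free inhibitory nuclei the other, with both counting intervals clear of 1. The difference between the classes was not tested, since each group is 1 library. The log2 ratio was 1.35 in members and -0.45 in Slc6a5-free nuclei for Sema3a, and 1.25 and -0.26 for Nell1. It was -1.72 and 0.41 for Hpse2, -1.34 and 1.38 for Acss1, and -1.28 and 1.21 for Alpk2. Acss1 and Alpk2 were at 1.21 and 1.97 CPM in naive Slc6a5-free nuclei, so their ratios there rest on few UMIs. In the peptide-holding glycinergic nuclei the ratio was 2.01 (1.68 to 2.42) for Nell1, 0.527 (0.333 to 0.825) for Acss1 and 0.391 (0.205 to 0.720) for Alpk2, in the direction of the members. There Hpse2 was at 2.11 (1.75 to 2.56), in the direction of the Slc6a5-free nuclei, and the interval of Sema3a (1.24, 0.955 to 1.61) held 1.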

How the results depend on the processing

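No paired analysis was possible because each group is 1 library with the replicate number 1, so the groups share fewer than 2 numbers. Genes higher than in Slc6a5-free nuclei numbered 425 with DESeq2, 671 with nuclei thinned to 3000 UMIs and 430 with the same peptide limits on both classes, and at least 2-fold 260 thinned and 165 with the limits. Lower genes numbered 292 with DESeq2, 1388 with no minimum count, 532 thinned and 346 with the limits, and at least 2-fold 209, 571 (no minimum) and 140 (limits). Against peptide-holding nuclei, higher genes numbered 66 with DESeq2, 111 without the library term, 220 thinned and 142 with at least 3 Slc6a5 UMIs, and lower genes 54, 87, 181 and 139, and 238 without the deepest 10% of nuclei. At least 2-fold, 43 (DESeq2) and 136 (no minimum) were higher and 18 (DESeq2) and 37 (no library term) lower. For injured over naive, higher genes numbered 231 in Xist-only and 381 in Y-only nuclei, 366 thinned, 319 with at least 3 Slc6a5 UMIs, 30 in all glycinergic nuclei, 314 and 77 with a minimum of 50 and 200 UMIs, 56 with equal cluster weights and 403 in cluster 0. Lower genes numbered 576 in Y-only nuclei, 432 thinned, 349 with at least 3 Slc6a5 UMIs, 63 in all glycinergic nuclei, 498 and 58 with a minimum of 50 and 200 UMIs, and 804 in cluster 0. The share of members was 2.719% naive and 2.218% injured when thinned, 8.368% and 9.529% with at least 1 Slc6a5 UMI, and 2.018% and 2.65% with at least 3.

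The settings by cluster, by oligodendrocyte marker UMIs and without CSF-contacting marker nuclei were chosen after seeing the data. Cluster 0 was left out of the members only, which fixes part of the fall of genes that are high in it. Directions reversed as follows. Without cluster 0, log2 over Slc6a5-free nuclei was -0.64 for Acss1, -1.42 for Rasgrp4 and -0.29 for Alpk2, and over peptide-holding nuclei -1.72 for Crabp1, -1.28 for Alpk2, -2.64 for Rasgrp4, -0.48 for Sulf1, -0.23 for Ikzf3, -0.11 for Slc9a3, -2.34 for Atp10a, -0.94 for Spp1, -3.03 for Acss1, -0.89 for Itga8, -1.58 for Fam20a and -0.87 for Crispld1. Pkd1l2 was at 3.14 without the CSF-contacting marker nuclei, which removes its UMIs from the reference. Within cluster 0 the injured over naive log2 ratio was -0.07 for Col25a1 and Sema3a, -0.91 for Samd5 and Nell1, -3.24 for Meis2, -3.03 for St18, -0.18 for Slc2a13 and -1.45 for Col19a1. These rest on 10 naive and 3 injured UMIs for Nell1 and fewer naive UMIs for the others, and carry no direction. Hpse2 was at 0.51 in all glycinergic nuclei, Alpk2 at 1.08 without cluster 0 and Meis2 at -1.97 without cluster 1. Of the 20 named ratios, 12 moved outside their interval in Y-only nuclei and 14 in all glycinergic nuclei. Other causes were not tested. Spp1, Gzmk, Tmem114 and Tesc were not called without the library term, nor Plpp3 and Eva1c with at least 3 Slc6a5 UMIs. Of the 24 genes named against Slc6a5-free nuclei, 10 gave the same result with nuclei thinned to 3000 UMIs. The rest had no recorded result there.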
